A study of Mus musculus with 30 samples.

Results

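Forelimb buds exposed for 12 h to Wnt-C59 (C59), an inhibitor of the enzyme porcupine that blocks release of WNT ligands, were set against control limb buds that were 6 h older. The comparison asks which genes depart from normal limb buds when the treated ones are read against a later stage of normal development. A shift of about 6 h along developmental time, and nothing else, would then leave few differences. A shift of another size could leave more. It uses 6 of the 30 libraries of the time course, the 3 of C59 at 12 h and the 3 of DMSO at 18 h, chosen by their labels. Of 50833 autosomal genes in the count table, 20569 are protein coding and 13443 passed the filter on low counts and were tested. The other DMSO libraries, 3 each at 1, 6, 12 and 24 h, served as the scale of normal development.

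All embryos were wild type on a Swiss Albino background, from females injected intraperitoneally at E10.5 with C59 or, for controls, with DMSO. Forelimb buds were collected at E10.5 + 12 h (C59) and E10.5 + 18 h (DMSO). According to the study, C59 was diluted in PBS with methylcellulose, Tween-20 and DMSO, while controls received DMSO in PBS. Drug and vehicle thus differed together and cannot be told apart. By the study's methods each replicate was RNA of 1 pair of forelimb buds, which the labels give as polyA RNA. Embryos of both sexes were used, and replicates of a condition and time came from several litters, with none tied to a single library. The whole limb bud was sequenced, with ectoderm, mesenchyme, muscle precursors, vessels and blood, so fewer cells of a type and less RNA per cell cannot be told apart. The drug reaches the mother and the whole embryo.

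WNT ligands that act through β-catenin keep distal limb mesenchyme dividing and unspecialised, and they restrain the start of cartilage formation, which the transcription factor SOX9 directs. In the limb bud they are wired to 3 other signals: FGFs from the apical ectodermal ridge at the distal tip, Sonic hedgehog (SHH) from the posterior margin, and BMPs with their antagonist Gremlin 1. Targets of β-catenin include several inhibitors of the pathway itself, such as *Axin2* and *Notum*, so their RNA is widely used as a readout of the signal.

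The libraries held 18252021 to 23932093 counts for C59 at 12 h and 18331160 to 38974885 for DMSO at 18 h. Levels are given as CPM, read counts scaled to library size after TMM normalization. A gene was called when edgeR's quasi-likelihood test gave a Benjamini-Hochberg adjusted p below 0.05 ("edgeR adjusted p" from here on) and the log2 fold change lay beyond 1 in either direction. Errors of a log2 fold change are standard errors, and each group has n = 3. Chi-square of the counts per degree of freedom between pairs of replicates ran from 3.73 to 16.6 in DMSO at 18 h. In C59 at 12 h it ran from 6.51 to 7.68. The measure grows with depth, so the ranges are not strictly alike. Replicates 2 and 3 of DMSO 18 h gave the 3.73, lower than every pair of C59 12 h. Replicate 1 of DMSO 18 h gave the values of 11.1 and 16.6, and an rRNA gene held 0.379% of its counts against 2.11 to 2.73% in the other 5 libraries. Without it 364 genes were called, against 348 with it. In each group 1 of 3 libraries held Y-linked RNA (summed FPKM above 10), so the groups did not differ in that number.

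Some of the WNT target genes that fell carry upstream a short sequence that TCF/LEF factors, the DNA-binding partners of β-catenin, are known to recognise, and 3 such stretches are shown for that reason. The letters CTTTGAA and CTTTGAT were searched on both strands in the 250 bases before the transcript start in the RefSeq promoter table (GRCm38.p6). They occurred in 7.48% of 32851 promoters. Of 30 genes in the 2 WNT target lists, 22 had an entry and 6 of them (27.3%) held a match; of the 14 with an entry that were called lower, 5 did (35.7%). The match is a description of letters, and no binding was measured. The entries of *Notum*, *Apcdd1* and *Lgr5*, also called lower, were missing. *Lgr5* lost its call without C59 12 h replicate 1 (-0.91), C59 12 h replicate 2 (-0.96) or DMSO 18 h replicate 2 (-0.89). Of the 5 called lower with a match, *Sp5*, *T* and *Sp9* are printed. Their RefSeq start lies within a GENCODE transcript of the gene, and *Dkk1* and *Edar* are the others. Capitals mark the match, which begins 104, 235 and 23 bases before the start in *Sp5* (chr2:70474673-70474922), *T* (chr17:8434173-8434422) and *Sp9* (chr2:73271676-73271925), all on the plus strand.
Sp5: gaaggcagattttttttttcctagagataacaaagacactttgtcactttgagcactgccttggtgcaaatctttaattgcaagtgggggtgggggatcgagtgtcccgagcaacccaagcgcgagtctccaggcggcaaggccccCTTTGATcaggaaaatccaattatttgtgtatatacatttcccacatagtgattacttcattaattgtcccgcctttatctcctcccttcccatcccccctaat
T: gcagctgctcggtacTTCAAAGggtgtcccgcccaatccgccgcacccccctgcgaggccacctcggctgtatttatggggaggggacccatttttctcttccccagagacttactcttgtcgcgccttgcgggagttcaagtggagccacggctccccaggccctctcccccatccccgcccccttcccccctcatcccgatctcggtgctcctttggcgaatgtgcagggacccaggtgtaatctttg
Sp9: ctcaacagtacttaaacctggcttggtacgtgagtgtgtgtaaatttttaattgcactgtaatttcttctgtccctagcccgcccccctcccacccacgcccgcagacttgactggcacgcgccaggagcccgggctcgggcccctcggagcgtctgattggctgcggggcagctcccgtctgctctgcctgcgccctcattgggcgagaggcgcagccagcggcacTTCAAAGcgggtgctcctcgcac

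Against controls 6 h older, limb buds exposed to C59 for 12 h had far less RNA of *Shh* and more of *Sox9*, *Sox5* and *Sox6*. Of the listed genes tested, 9 of 15 WNT feedback targets were called lower. So were 2 of 12 FGF ligands and receptors, 3 of 12 BMP ligands and antagonists and 1 of 9 BMP response genes. None in these lists was called higher. Genes that change with age, cartilage matrix genes and muscle fibre genes had medians from -0.23 to 0.27 against the older controls. These medians lay nearer to no change than those against controls of the same age. Rises and falls cancel in a median, so single genes need not be close. Of genes rising with age 3.80% were called higher and 5.51% lower, and of those falling 7.88% and 9.09%, above the shares over all genes. Cartilage matrix genes ran from -1.68 to 0.76 and muscle fibre genes from -1.12 to 0.29. In all, 171 genes were higher (1.27% of genes tested) and 177 lower (1.32%). At the adjusted p alone, without the fold threshold, 2067 were higher (15.4%) and 2209 lower (16.4%). Counts over the gene lists below are to be read beside these shares. The median log2 fold change over all genes was 0.020. TMM normalization centres most genes, so this median lies near 0 by construction.

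The number of calls differed with the age of the controls. C59 at 12 h differed from DMSO at 1 h in 1555 genes (11.6% of genes tested), from DMSO at 6 h in 1146 (8.62%), from DMSO at 12 h in 660 (4.95%), from DMSO at 18 h in 348 (2.59%) and from DMSO at 24 h in 648 (4.76%). These 5 comparisons share the C59 12 h libraries. Such counts also depend on the spread of replicates. The common coefficient of variation between replicates was largest against 18 h (7.90%) and smallest against 24 h (6.14%). The median absolute log2 fold change was 0.194 against 18 h and 0.188 against 24 h, so by that measure 18 h was not the nearest. The balance of the calls also moved with age. Higher genes outnumbered lower ones 470 to 190 against controls of the same age (3.53% and 1.43%), were about level with them at 171 to 177 against 18 h, and were outnumbered 201 to 447 against 24 h. Controls themselves differed between 18 h and 12 h in 157 genes higher (1.19%) and 16 lower (0.121%). The 173 calls between the control ages rest on single libraries: without DMSO 12 h replicate 1, 2 or 3 they came to 51, 277 and 52, and without DMSO 18 h replicate 2 or 3 to 79 and 107.

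**Figure D1:**
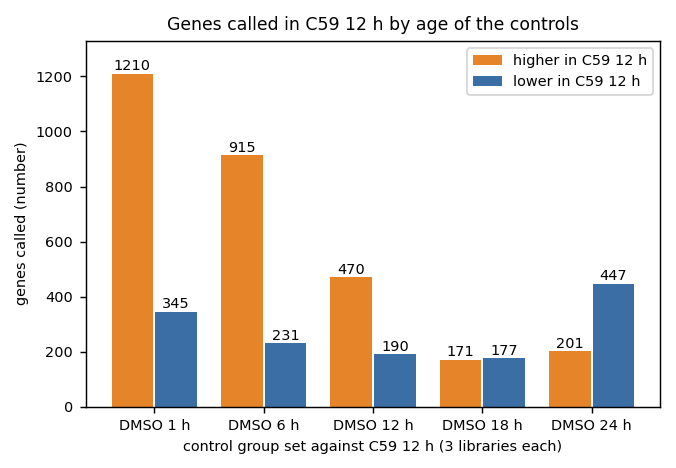
Number of genes called higher (orange) and lower (blue) in C59 12 h, on the vertical axis, by the control group it was set against on the horizontal axis, with 3 libraries a group. The fewest calls in total, 348, are against DMSO 18 h, where the numbers in both directions are nearly equal at 171 and 177. The spread of replicates, on which the counts also depend, was largest in that comparison.

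A scale of normal development was taken from libraries outside the comparison. In DMSO, 1435 genes were higher at 24 h than at 1 h (10.6% of genes tested) and 190 lower (1.4%). Their mean log2 CPM, higher genes minus lower genes, placed the C59 12 h libraries at 0.21, 0.26 and 0.18. The DMSO 18 h libraries lay at 0.051, 0.30 and 0.057. The groups overlapped only through DMSO 18 h replicate 2, at 0.30, and the other DMSO 18 h libraries lay below all of C59 12 h. DMSO at 12 h, the same age as the treated buds, lay lower at -0.97, -0.49 and -1.01, and DMSO at 24 h higher, from 1.21 to 1.34. With the 50 genes of largest change in each direction in place of all, the mean of C59 12 h minus that of DMSO 18 h turned from 0.081 (0.039 to 0.16 without DMSO 18 h replicate 1 or 2) to -0.31.

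A different order appeared for genes that the drug lowers early. In C59 at 6 h, 97 genes were lower than in DMSO at 6 h (0.74% of genes tested) and 56 higher (0.427%), again in libraries outside the comparison. The mean log2 CPM of the 97 lowered genes was 1.21, 1.14 and 1.23 in C59 at 12 h. It was 2.32, 2.25 and 2.32 in DMSO at 18 h, and it stayed between 2.14 and 2.85 in all 15 DMSO libraries. On this score the treated libraries lay below every control of any age. The gap to DMSO 18 h was -1.11, and -0.56 on the log2(FPKM + 1) scale.

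**Figure D2:**
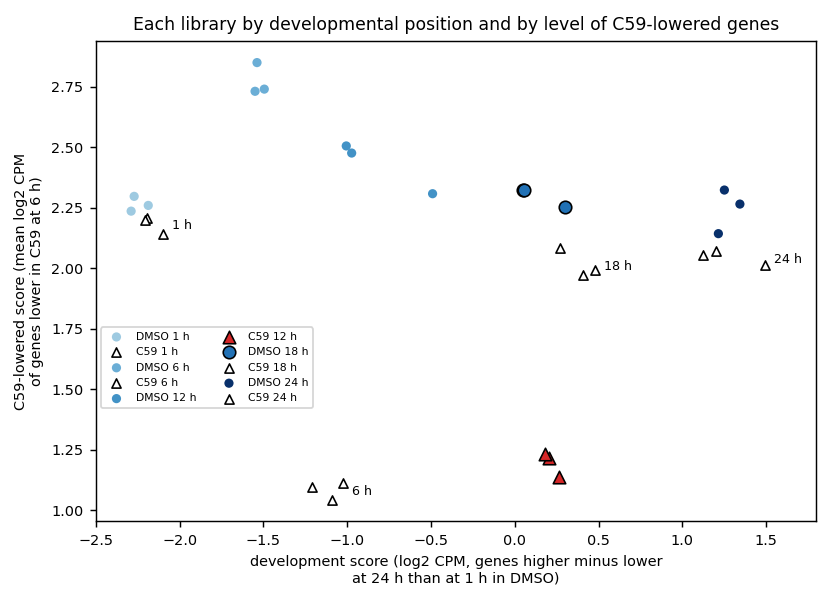
Every one of the 30 libraries by its development score (horizontal, log2 CPM) and its C59-lowered score (vertical, mean log2 CPM); circles are DMSO, triangles C59, and darker blue is older DMSO. The C59 12 h libraries (red) lie within the horizontal range of DMSO 18 h, whose upper end is its replicate 2 alone. Vertically they lie at 1.14 to 1.23, where no DMSO library is below 2.14.

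Counted gene by gene, of the 97 genes lowered at 6 h, 88 were tested here and 42 were called lower and 1 higher than in DMSO at 18 h, with a median log2 fold change of -1.01 beside 0.020 over all genes. Of the 56 raised at 6 h, 55 were tested, and 7 were called higher and none lower at a median of 0.22, or 0.35 without DMSO 18 h replicate 2. Genes that rise with age had a median of 0.082: of 1342 tested, 51 were called higher and 74 lower. Against DMSO of the same age their median was 0.64, and between DMSO 18 h and DMSO 12 h it was 0.50. Genes that fall with age had a median of 0.0046, with 13 of 165 called higher and 15 lower. Leaving out single libraries, most of all C59 12 h replicate 1 or DMSO 18 h replicate 2, moved the median of the rising genes between 0.037 and 0.14, and that of the falling genes between -0.065 (without C59 12 h replicate 3) and 0.10 (without DMSO 18 h replicate 1). Single genes of both age-linked groups were still called: 3.80% higher and 5.51% lower of those that rise, and 7.88% and 9.09% of those that fall, beside 1.27% and 1.32% over all genes.

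**Figure D3:**
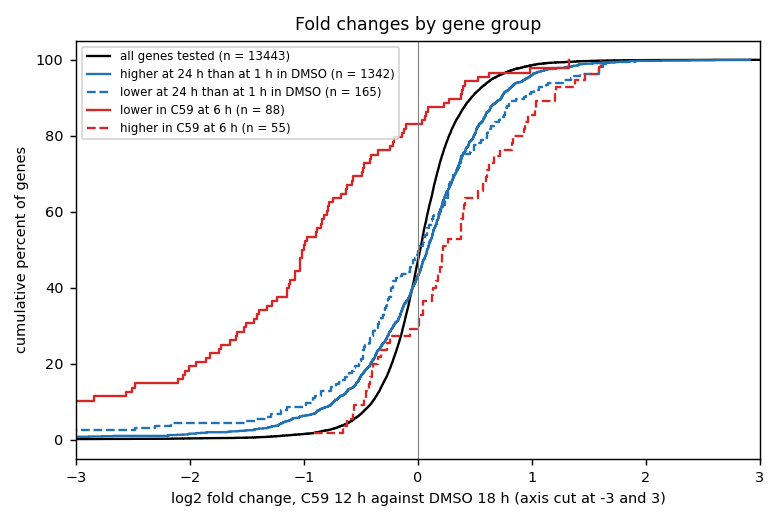
Cumulative percent of genes (vertical) by log2 fold change of C59 12 h against DMSO 18 h (horizontal, drawn from -3 to 3) for all 13443 tested genes and for groups defined in other libraries. The 88 genes lowered at 6 h lie to the left with a median of -1.01, and the 1342 age-rising genes have a median of 0.082, beside 0.020 over all genes.

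The 177 lower genes divided by where they lay against controls of all ages. In CPM, 86 of them were below all 15 DMSO libraries from 1 to 24 h, and 91 were inside the range that normal limb buds pass through. Of the 74 lower genes that rise with age, 67 were inside that range, which a rising gene spans by its nature, and 7 below it. Of the 88 lower genes without such a change, 66 were below it, and so were 13 of the 15 that fall with age. Of the 171 higher genes, 88 were above all 15 DMSO libraries. Over all genes tested, 15.2% lay below and 8.21% above every DMSO library, so a position outside the range is not rare in itself.

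Canonical WNT targets were lower than in the older controls, and 16 of the 22 in the study's WNT panel lay below controls of every age. *Axin2* (ENSMUSG00000000142, chr11:108920349-108950783, plus strand of GRCm38), a scaffold of the complex that destroys β-catenin, had 38.9, 38.6 and 43.7 CPM in C59 at 12 h and 111, 109 and 110.3 CPM in DMSO at 18 h. The groups did not overlap, and the 15 DMSO libraries ran only from 104 to 126 CPM. The log2 fold change was -1.41 ± 0.061 (edgeR adjusted p = 2.70e-06), and -1.45 against DMSO of the same age. *Notum* (ENSMUSG00000042988, chr11:120653788-120661175, minus strand), which encodes an enzyme that strips the lipid from WNT proteins, fell from 5.90, 5.81 and 5.35 CPM in DMSO at 18 h to 0.817, 0.294 and 0.598 CPM in C59 at 12 h. Its log2 fold change was -3.32 ± 0.27 (edgeR adjusted p = 5.91e-05), and since the strand used in counting is not stated, its reads cannot be told from those of its antisense gene *Notumos*.

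The intracellular inhibitor *Nkd2* had 15.6, 15.5 and 20.2 CPM in treated buds against 105, 101 and 105 CPM, a log2 fold change of -2.56 ± 0.096. *Apcdd1*, which encodes a membrane-bound WNT inhibitor, had 15.7, 19.0 and 22.8 against 111, 108 and 119 CPM (-2.51 ± 0.11). Each treated library lay below each of the 15 controls for both genes. Among receptors and extracellular modulators, the Frizzled receptor gene *Fzd10* changed by -1.86 and *Rspo1*, an R-spondin that amplifies WNT signals, by -1.86. The secreted antagonists *Dkk1*, *Dkk2* and *Wif1* changed by -2.05, -1.95 and -1.65, and *Edar*, an ectodysplasin receptor of the skin, by -1.02 (-0.87 without C59 12 h replicate 2 and -0.92 without DMSO 18 h replicate 2). The target transcription factors *Sp5*, *T* and *Sp9*, whose upstream sequences are printed above, changed by -1.51, -2.11 and -1.45, and *Tcf7*, itself a TCF/LEF factor, by -1.42. All of these were called. The secreted Frizzled-related antagonists went the other way at the adjusted p alone: *Sfrp2* had 0.83 ± 0.11, *Frzb* 0.75 ± 0.066 and *Sfrp1* 0.47 ± 0.11.

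For a few of these genes the age of the control changed the value. *Dkk2* had 10.4, 11.4 and 11.6 CPM in C59 at 12 h, 22.7, 26.4 and 22.7 CPM in DMSO at 12 h and 43.0, 49.1 and 39.5 CPM in DMSO at 18 h. Its level in controls rose over those 6 h (edgeR adjusted p = 0.00226), and the log2 fold change was -1.95 against 18 h beside -1.10 against 12 h. *Sp9* had -1.45 beside -0.70 in the same order, and was called only against the older controls. Whether the 2 fold changes of a gene differ was not tested, since both comparisons share the treated libraries.

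Counted over the list that the study picked on these libraries, 16 of 22 tested WNT genes were called lower and none higher, against 1.32% of all genes, and the median was -1.43. The choice of that list is not independent of these data. A list of 15 tested feedback targets was written from general knowledge and shares several genes with that list. It had 9 called lower, 14 lower at the adjusted p alone (16.4% over all genes) and a median of -1.08. *Lef1*, another TCF/LEF factor, had -0.85 ± 0.077, lower at the adjusted p alone (edgeR adjusted p = 9.62e-05). The 1 gene higher at the adjusted p alone was *Rnf43*, a ubiquitin ligase that removes Frizzled receptors, with 5.23, 5.38 and 6.16 CPM in treated buds against 3.62, 4.09 and 3.35 CPM (0.62 ± 0.15).

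Of 16 WNT ligand genes tested, 12 had positive and 4 negative values, at a median of 0.27. At the adjusted p alone 5 were higher (15.4% over all genes), 1 of them called, and none was lower, while DESeq2 made 1 lower, the replicate block 2, and leaving out single libraries 0 or 1. The lowest was *Wnt2b*, with 2.996, 2.44 and 1.56 CPM against 3.89, 4.90 and 2.92 CPM (-0.75 ± 0.27, edgeR adjusted p = 0.0634), and *Wnt5b* lay below all 15 controls (-0.25 ± 0.090, edgeR adjusted p = 0.0617). *Wnt9b* had 18.1, 22.7 and 28.0 CPM against 8.60, 11.9 and 9.89 CPM, with all 3 treated libraries above all 15 controls, and a log2 fold change of 1.20 ± 0.17 (edgeR adjusted p = 8.66e-04). *Wnt7b*, the ectodermal *Wnt3* and *Wnt4* had 0.91, 0.89 and 0.79; without C59 12 h replicate 1 the first pair came to 1.04 and 1.00, past the fold threshold. *Wnt5a*, the main ligand of the distal mesenchyme that acts largely without β-catenin, had 325, 359.7 and 415 CPM against 305, 356 and 356 CPM, and its log2 fold change had a 95% interval of -0.057 to 0.35.

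Surface ectoderm genes moved with those ligands. All 12 listed had positive log2 fold changes, 10 were higher at the adjusted p alone (15.4% over all genes), and their median was 0.64. Their summed level ran from 476 to 652 CPM in C59 at 12 h and from 363 to 387 CPM in DMSO at 18 h. *Epcam*, an epithelial adhesion gene, had 43.7, 46.8 and 60.8 CPM against 32.9, 32.3 and 33.98 CPM (0.64 ± 0.11). The keratin gene *Krt8* was the 1 called (1.06 ± 0.14), and came to 0.90 without C59 12 h replicate 3 and 0.97 without DMSO 18 h replicate 2. The part of ectoderm share in the levels of *Wnt9b*, *Wnt7b* and *Wnt3* was not tested.

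*Shh* (posterior margin signal; ENSMUSG00000002633, chr5:28456815-28467256, minus strand) showed the largest fall among signaling genes. It had 7.30, 5.24 and 6.32 CPM in DMSO at 18 h and 0.218, 0.0420 and 0.276 CPM in C59 at 12 h, where 11 reads were counted in the 3 libraries together. Controls lose *Shh* as they age, from 13.9 ± 1.32 CPM (SD, n = 3) at 1 h to 0.898 ± 0.458 CPM at 24 h, and the lowest of the 15 controls, 0.515 CPM, was still above the highest treated library. The log2 fold change was -5.10 ± 0.37 against DMSO 18 h (edgeR adjusted p = 3.07e-05) and -6.09 against DMSO 12 h. *Shh* was the 1 gene called of 12 in its pathway list, at a median of 0.028. *Ptch1*, receptor and transcriptional target of SHH, had 127, 147 and 152 CPM against 112, 136 and 151 CPM, a log2 fold change of 0.13 with a 95% interval of -0.10 to 0.36. *Gli1*, the usual readout of SHH activity, had 45.7, 40.0 and 59.3 CPM against 57.4, 41.5 and 45.6 CPM, a log2 fold change of 0.042 and an interval of -0.31 to 0.39; it turned to -0.14 without C59 12 h replicate 3 and -0.065 without DMSO 18 h replicate 2. The groups overlapped for *Ptch1* and *Gli1*, and neither interval reached a log2 change of 1.

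FGF ligands and their targets fell unevenly. *Fgf8* (ENSMUSG00000025219, chr19:45736798-45742915, minus strand), the ligand made all along the apical ridge, had 2.89, 1.56 and 3.13 CPM against 14.7, 12.8 and 15.7 CPM (-2.49 ± 0.21, edgeR adjusted p = 6.63e-05). In controls it too declined with age, from 39.7 ± 4.19 CPM at 1 h to 7.23 ± 0.605 CPM at 24 h, and all treated libraries lay below all 15 controls. *Fgf9*, a second ridge ligand, had -1.01 ± 0.14, and came to -0.89 without C59 12 h replicate 3 and -0.94 without DMSO 18 h replicate 3. *Fgf10*, the mesenchymal ligand that signals to the ridge, had 22.2, 25.9 and 25.4 CPM against 27.3, 29.6 and 29.7 CPM (-0.21 ± 0.080, edgeR adjusted p = 0.0797). Among 12 ligand and receptor genes tested, 2 were called lower and none higher, with a median of -0.18. At the adjusted p alone 4 were lower (16.4% over all genes) and 3 higher (15.4%). The 3 came to 1 when C59 12 h replicate 1 or 2 or DMSO 18 h replicate 2 or 3 was left out. Those higher were the receptor genes *Fgfr2* (0.58 ± 0.051), which lay above all 15 controls and whose reads may be shared with other genes in its annotated span, *Fgfrl1* (0.32 ± 0.10) and *Fgfr1* (0.18 ± 0.061).

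Genes that respond to FGF receptors through ERK were lower as a group: 10 of 12 at the adjusted p alone (16.4% of all genes). Of them 4 were called (1.32% of all genes), none was higher and the median was -0.63. The 4 were the ETS factors *Etv4* (-2.08 ± 0.070) and *Etv5* (-1.26 ± 0.10) and the feedback inhibitors *Spry4* (-1.57 ± 0.067) and *Dusp6* (-1.06 ± 0.067). *Etv4* had 15.5, 17.1 and 16.2 CPM in C59 at 12 h against 73.5, 66.8 and 71.6 CPM in DMSO at 18 h and 75.3, 67.2 and 79.5 CPM in DMSO at 12 h. Control levels at 12 h and 18 h overlapped for *Etv4*, and the treated libraries stood apart from both. In the FGF/HH panel of the study, picked on these libraries, 6 of 9 were called lower and the median was -1.26.

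BMP ligands, their antagonist and a target fell together. *Msx1* (ENSMUSG00000048450, chr5:37820485-37824583, minus strand), a homeobox gene of undifferentiated distal mesenchyme and a BMP target, had 13.7, 13.3 and 18.6 CPM against 116, 104 and 117 CPM. No treated library came near the controls, which ran from 103 to 188 CPM across 24 h, and the log2 fold change was -2.85 ± 0.12 (edgeR adjusted p = 2.17e-06). *Bmp4* had 41.3, 35.9 and 31.6 CPM against 85.9, 80.9 and 76.4 CPM (-1.13 ± 0.095), and *Grem1*, whose product binds BMPs and keeps ridge and mesenchyme in dialogue, had 20.97, 14.2 and 25.9 CPM against 49.0, 57.7 and 61.8 CPM (-1.44 ± 0.18). *Bmp2* rose with age in controls, from 18.5, 22.4 and 18.6 CPM at 12 h to 30.3, 29.4 and 32.9 CPM at 18 h, and stood at 10.46, 12.4 and 13.1 CPM in treated buds, so its log2 fold change was -1.33 against 18 h beside -0.72 against 12 h.

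Of 12 BMP ligands and antagonists these 3 were called lower (1.32% over all genes) and none higher, with a median of -0.51. Other direct BMP targets moved less. *Id1*, an inhibitor of differentiation factors, had -0.88 ± 0.063, and in the list of 9 BMP response genes *Msx1* was the 1 called, at a median of -0.18. In the study's BMP panel, picked on these libraries, 4 of 6 were called lower at a median of -1.13.

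Limb mesenchyme progenitor genes were lower, by less. Of 13 tested, 8 were lower at the adjusted p alone (16.4% over all genes) and none higher, with 3 called (1.32%) and a median of -0.57. Those called were *Msx1*, *Tfap2c* (-1.15 ± 0.19) and *Twist2* (-1.12 ± 0.19), both transcription factors of immature mesenchyme; *Tfap2c* came to -0.92 without C59 12 h replicate 2 and *Twist2* to -0.91 without replicate 3. *Twist1* had 191, 176 and 190.0 CPM against 347, 345 and 331 CPM (-0.85 ± 0.052) and *Lhx2*, which relays ridge signals in the mesenchyme, -0.92 ± 0.10; without C59 12 h replicate 3 *Lhx2* came to -1.07. *Prrx1*, present throughout limb mesenchyme, had -0.34 ± 0.058, and its 95% interval was -0.48 to -0.21. Among positional genes, none of 11 HoxA and 9 HoxD genes was called, at medians of -0.049 and 0.049. Over all genes 2.59% were called, so lists this short may hold no call without standing apart. At the adjusted p alone 2 HoxA genes were lower and none higher, and 2 HoxD genes were lower and 1 higher. Over all genes 16.4% were lower and 15.4% higher at that threshold, so these counts do not set the Hox lists apart. *Hoxd13*, which specifies the digit region, had 149, 168 and 238 CPM against 302, 303 and 314 CPM (-0.69 ± 0.14).

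**Figure D4:**
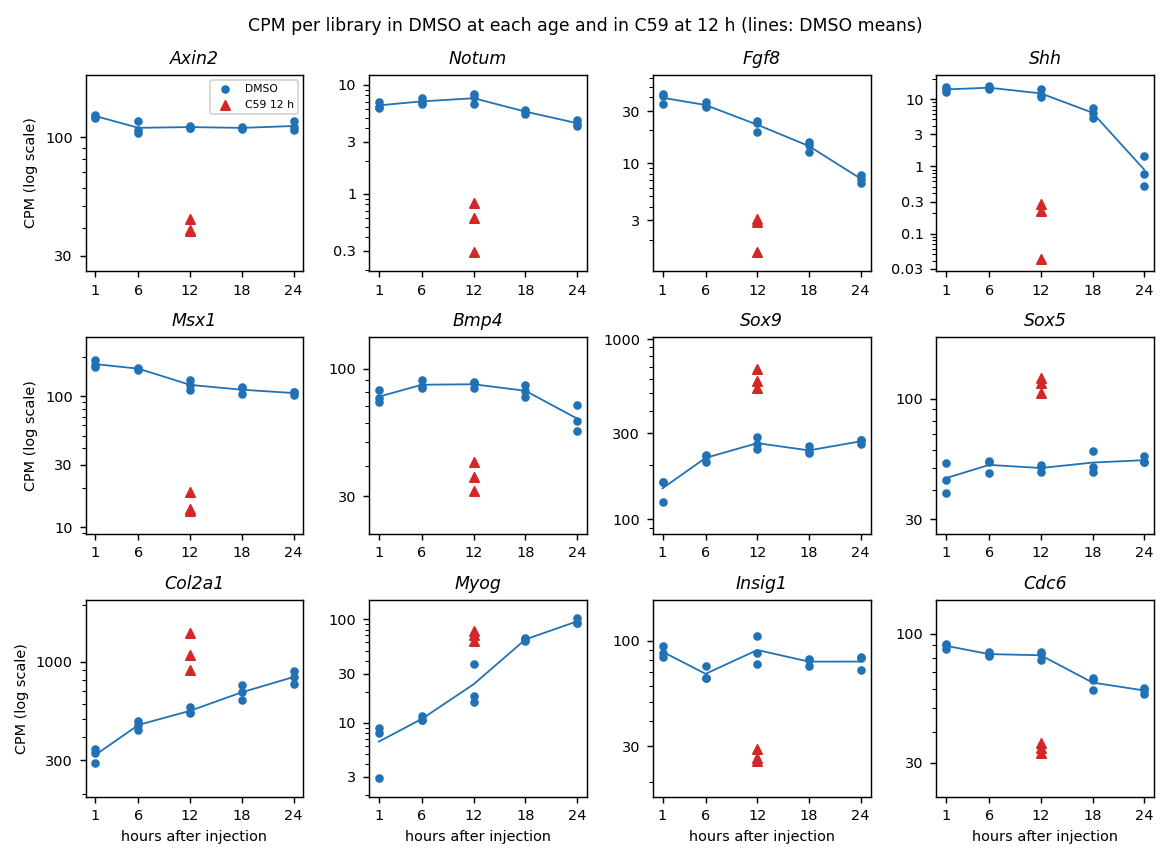
CPM on a log scale (vertical) for 12 genes by hours after injection (horizontal), with DMSO libraries in blue, their means joined by a line, and the 3 C59 12 h libraries in red. *Axin2*, *Notum*, *Fgf8*, *Shh*, *Msx1*, *Bmp4*, *Insig1* and *Cdc6* in treated buds lie below the DMSO range of all ages and *Sox9*, *Sox5* and *Col2a1* above it, while *Myog* lies inside it, with the DMSO 18 h libraries.

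Regulators of cartilage were higher than in older controls. *Sox9* (ENSMUSG00000000567, chr11:112782224-112787760, plus strand), the master factor of chondrogenesis, had 681, 584 and 538 CPM in C59 at 12 h against 254, 237 and 232 CPM in DMSO at 18 h. All treated libraries lay above all 15 controls, whose highest was 285 CPM, and the log2 fold change was 1.35 ± 0.085 (edgeR adjusted p = 2.08e-05). Its partners *Sox5* and *Sox6* had 123, 117 and 106 CPM against 48.2, 59.5 and 50.6 CPM (1.15 ± 0.086) and 126, 122 and 98.5 CPM against 45.5, 56.0 and 51.1 CPM (1.21 ± 0.10). Both groups of libraries were apart for each partner, and between DMSO 18 h and DMSO 12 h they had log2 fold changes of 0.084 and 0.38.

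Of 12 Sox and cartilage regulators 5 were called higher (1.27% over all genes), the others being *Barx2* (1.40 ± 0.14), a homeobox gene of condensing cartilage, and *Nkx3-2* (1.12 ± 0.24), which promotes the chondrocyte fate. *Nkx3-2* fell short of the fold threshold without C59 12 h replicate 3 (0.87) or without DMSO 18 h replicate 3 (0.92). The 1 called lower was *Runx3* (-1.19 ± 0.23), a runt factor of later skeletal development that rises with age in controls: it had 0.981, 1.35 and 1.52 CPM in treated buds, 1.60, 1.56 and 1.19 CPM in DMSO at 12 h and 2.60, 3.16 and 3.30 CPM at 18 h. In the study's chondrogenesis panel, picked on these libraries, all 13 genes had positive values, 4 were called higher and the median was 0.72. *Sulf1*, a sulfatase that trims heparan sulfate and completes those 4 with the 3 Sox genes, had 1.01 ± 0.12; it came to 0.86, 0.95 and 0.97 without C59 12 h replicate 3, DMSO 18 h replicate 1 or DMSO 18 h replicate 3.

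Cartilage matrix genes, which lie downstream of the SOX factors, were not called higher. Of 15 tested, 4 were higher at the adjusted p alone (15.4% over all genes) and 1 was called lower. The median was 0.27, beside 1.11 against DMSO of the same age and 0.86 between the control ages. The median depended on single libraries, from -0.017 without C59 12 h replicate 1 to 0.41 without DMSO 18 h replicate 1. *Col2a1*, the main collagen of cartilage, had 1417, 1084 and 908 CPM against 751, 690.5 and 627 CPM, above every control (0.75 ± 0.14, edgeR adjusted p = 0.00358). *Acan*, the large proteoglycan of mature matrix, was spread over 4.58, 0.925 and 0.276 CPM in treated buds against 4.81, 7.06 and 5.84 CPM in DMSO at 18 h (-1.68 ± 0.62, edgeR adjusted p = 0.0651). Replicate 1 of C59 12 h stood just below the lowest control for *Acan*, and without it the value was -3.25 (edgeR adjusted p = 9.20e-04). The gene called lower, the small proteoglycan gene *Epyc*, had 0.381, 0.504 and 0.276 CPM against 1.03, 0.937 and 1.03 CPM (-1.30 ± 0.33), and missed the threshold when C59 12 h replicate 3 (edgeR adjusted p = 0.0549) or DMSO 18 h replicate 3 (0.0511) was left out.

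**Figure D5:**
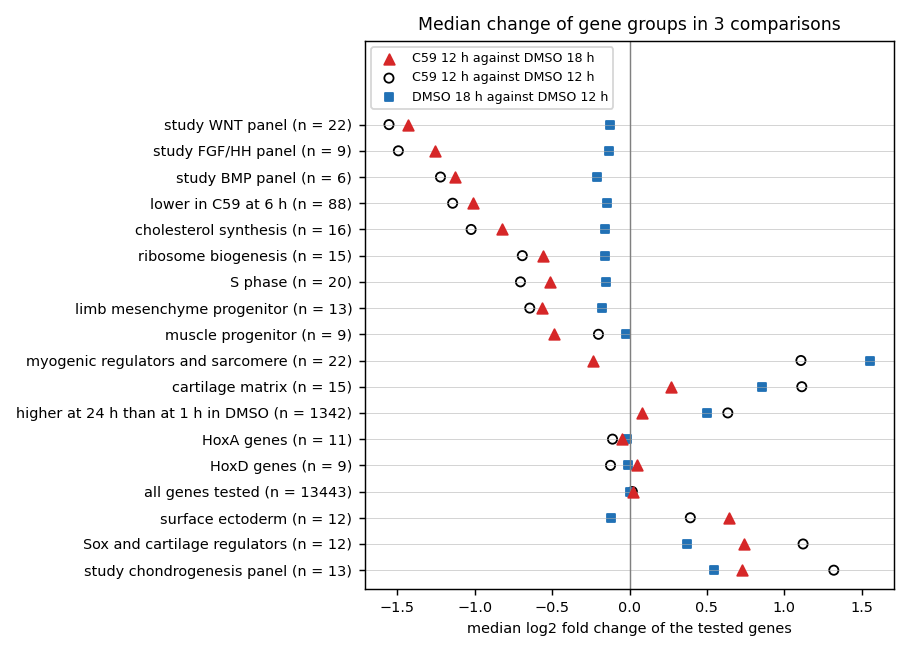
Median log2 fold change (horizontal) of the tested genes of each list (vertical, with its n) in 3 comparisons that share libraries. The WNT, BMP and FGF/HH panels lie at -1.43, -1.13 and -1.26 against DMSO 18 h, while the sarcomere list is at -0.23 against DMSO 18 h and 1.11 against DMSO 12 h.

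In the list of myogenic regulators and sarcomere genes, 22 were tested, none was called higher and 1 lower. At the adjusted p alone 5 were lower (16.4% over all genes) and none higher. The median was -0.23, where the same genes had 1.11 against DMSO 12 h and 1.56 between control ages. The 5 came to 3 when DMSO 18 h replicate 2 was left out and to 10 with a replicate block. The median against 18 h moved to -0.42 when C59 12 h replicate 2 was left out, and to -0.15 when DMSO 18 h replicate 2 was. *Myog*, which drives muscle fibre differentiation, had 70.3, 76.9 and 61.8 CPM in C59 at 12 h, 66.3, 64.5 and 61.5 CPM in DMSO at 18 h and 18.4, 36.8 and 15.8 CPM in DMSO at 12 h. The treated libraries overlapped with the older controls and were above those of their own age, with a log2 fold change against 18 h of 0.15 and a 95% interval of -0.029 to 0.34. The actin gene *Actc1* had an interval of -0.37 to 0.054 in the same comparison. The 1 called lower, the light chain gene *Myl4* (-1.12 ± 0.30), missed the threshold when C59 12 h replicate 1 (edgeR adjusted p = 0.0515) or DMSO 18 h replicate 2 (0.0858) was left out.

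Precursor genes of muscle were lower. Of 9 tested, 6 were lower at the adjusted p alone (16.4% over all genes) and none higher, at a median of -0.49. *Pax3*, a factor of migrating muscle precursors, had 3.49, 3.87 and 2.71 CPM against 8.44, 8.46 and 8.32 CPM in DMSO at 18 h (-1.29 ± 0.15), and controls fell as well, with -0.72 between 18 h and 12 h (edgeR adjusted p = 0.0151). *Lbx1*, needed for their migration into the limb, had 13.9, 12.9 and 10.4 CPM against 29.7, 24.2 and 27.3 CPM (-1.09 ± 0.12), and -0.98 without C59 12 h replicate 3. *Met*, the receptor that guides that migration, had -0.81, and the early myogenic factor *Myf5* -0.96, or -1.03 without C59 12 h replicate 2. All treated libraries were below all 15 controls for each of these 4 genes.

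All 20 listed S phase genes were lower at the adjusted p alone, beside 16.4% of all genes, and in 19 the treated libraries lay below all 15 controls, beside 15.2%. None passed the fold threshold, and the median was -0.51. The replication licensing factor *Cdc6* had 34.4, 32.9 and 36.2 CPM in treated buds against 59.3, 64.8 and 66.2 CPM (-0.85 ± 0.065), *Rrm2*, a subunit of the enzyme that makes deoxynucleotides, had -0.76 ± 0.063 and *Pcna*, the sliding clamp of DNA polymerase, -0.69 ± 0.061. Between DMSO 18 h and DMSO 12 h the same genes had a median of -0.16. Among 20 G2/M genes 10 were lower at the adjusted p alone (16.4% over all genes), none was called, and the median was -0.21. The 10 came to 6 when C59 12 h replicate 1 or 2 or DMSO 18 h replicate 3 was left out. Of 11 genes of the MYC, D cyclin and CDK inhibitor list, 3 were lower at the adjusted p alone (16.4% over all genes). In the other direction 2 were higher (15.4%), and the median was 0.0018. *Mycn*, a growth-promoting factor and a listed WNT target, had 56.5, 49.9 and 59.5 CPM against 107, 103 and 107 CPM (-0.90 ± 0.068), and *Cdkn1c*, an inhibitor of the cell cycle, had 599, 562 and 480.0 CPM against 329, 362 and 364 CPM (0.67 ± 0.080). The others were *Myc* (-0.72) and the D cyclin gene *Ccnd1* (-0.59) on the lower side and the inhibitor gene *Cdkn1b* (0.54) on the higher.

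Ribosome biogenesis genes were lower at the adjusted p alone in 14 of 15 (16.4% over all genes), with none called and a median of -0.56. *Nop56*, a core protein of the particles that modify ribosomal RNA, had 116, 117 and 125 CPM against 248, 192 and 203 CPM (-0.81 ± 0.093). It hosts small nucleolar RNA genes, so its reads may be shared.

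Genes of the cholesterol list were lower throughout. All 16 tested were lower at the adjusted p alone (16.4% over all genes) and below all 15 controls (15.2%). Of them 4 were called (1.32% over all genes), none was higher and the median was -0.82. Between DMSO 18 h and DMSO 12 h their median was -0.16. *Insig1* (ENSMUSG00000045294, chr5:28071363-28078662, plus strand), a sterol-responsive regulator of the pathway, had 25.4, 26.2 and 29.2 CPM against 80.5, 74.6 and 81.4 CPM (-1.51 ± 0.071, edgeR adjusted p = 4.27e-06). The synthesis enzymes *Idi1* and *Msmo1* changed by -1.32 and -1.18, and were called as well.

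Amino acid and stress genes did not move one way. Of 12 genes of the ATF4 response, 2 were called lower and 2 higher. *Slc7a11*, a cystine transporter, had 5.77, 7.27 and 8.69 CPM against 20.2, 26.7 and 27.8 CPM (-1.74 ± 0.16), and *Psat1*, an enzyme of serine synthesis, -1.04 ± 0.064. *Trib3*, a pseudokinase induced by stress, had 5.23, 5.13 and 5.38 CPM against 1.46, 1.53 and 1.999 CPM (1.70 ± 0.18), and *Ddit4*, an inhibitor of mTORC1, 298, 262 and 250.3 CPM against 127, 130.1 and 121 CPM (1.13 ± 0.071). The treated libraries lay outside the range of all 15 controls for each of these 4 genes.

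Genes that mark developmental time through the LIN28 pathway showed no call in 9 tested, beside 2.59% over all genes, with a median of -0.16. At the adjusted p alone 4 were lower (16.4% over all genes) and 1 higher (15.4%). The 4 ran from 3 to 6 when single libraries were left out. The median of these genes was -0.48 against DMSO 12 h and -0.30 between DMSO 18 h and DMSO 12 h. *Hmga2*, a chromatin protein of growing embryonic tissue, had 826, 779.6 and 744 CPM against 1056, 1107 and 1124 CPM (-0.45 ± 0.050) and *Lin28b*, which blocks maturation of let-7 microRNAs, 25.6, 25.7 and 27.9 CPM against 33.5, 32.2 and 38.2 CPM (-0.36 ± 0.082), both lower at the adjusted p alone. Of 14 factors of the anterior-posterior axis, 2 were called lower and none higher, at a median of -0.24. They were *Hand1* (-1.34 ± 0.31) and the anterior gene *Pax9* (-1.07 ± 0.14), which came to -0.95 without C59 12 h replicate 3. Among 14 retinoid genes *Crabp1*, a retinoic acid binding protein of early mesenchyme, was the 1 called (38.7, 39.9 and 35.4 CPM against 86.4, 92.7 and 89.0 CPM, -1.20 ± 0.063). Of 10 genes of the p53 response, none was called and 6 were higher at the adjusted p alone (15.4% over all genes). The 6 came to 3 when C59 12 h replicate 3 was left out, and to 4 to 6 without any other library. They were led by *Trp53inp1* (0.98 ± 0.076) and *Bbc3*, a cell death gene (0.79 ± 0.092). *Trp53inp1* came to 1.05 when C59 12 h replicate 3 was left out and to 1.03 when DMSO 18 h replicate 2 was.

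Markers of other cell types in the bud were in part higher. Globin genes had a median of 0.73, with 5 of 6 higher at the adjusted p alone (15.4% over all genes) and none called. Their summed level ran from 6646 to 9525 CPM in treated buds. It ran from 4119 to 5242 CPM in DMSO at 18 h and from 5294 to 7657 CPM in DMSO at 12 h. Endothelial genes had a median of 0.34, with 9 of 12 higher at the adjusted p alone (15.4% over all genes). Leaving out C59 12 h replicate 2 or DMSO 18 h replicate 3 lowered the 9 to 4, and leaving out replicate 1 of C59 or 2 of DMSO to 5. Macrophage genes had a median of 0.20, with none of 11 past the adjusted p. The part of these cell types in the differences above was not tested.

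The 10 largest falls among called genes with at least 1 CPM on average included *Shh* and *Notum* and 8 genes outside the signaling lists. Of these, *Kera*, the keratocan proteoglycan of connective tissue, rose with age in controls and lay below controls of its own age in treated buds: it had 0.545, 1.01 and 0.920 CPM in treated buds, 2.65, 3.95 and 2.49 CPM in DMSO at 12 h and 11.2, 11.5 and 10.6 CPM in DMSO at 18 h (-3.68 ± 0.19 against 18 h). *Lum*, a related proteoglycan the 1 called of 13 in the tendon and connective tissue list, had 19.6, 22.8 and 28.9 CPM in treated buds, which overlapped with 26.7, 31.8 and 24.6 CPM in DMSO at 12 h, and 64.7, 67.8 and 66.2 CPM at 18 h (-1.44 ± 0.12). *Rfx4*, an RFX family transcription factor, had 0.0545, 0.126 and 0.0460 CPM against 2.76, 2.44 and 1.78 CPM (-4.78 ± 0.43), inside the range of younger controls. Such levels rest on very few reads in treated buds, so the size of its fold change is uncertain.

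*Ctse*, an aspartic protease, had 0.109, 0.294 and 0.0920 CPM against 4.76, 3.34 and 6.86 CPM (-4.76 ± 0.46), below all controls of any age. Few reads were counted for *Ctse* in treated buds as well, so the size of its fold change is uncertain. *Myh15*, a myosin heavy chain gene, had 1 read in the 3 treated libraries and 2.92, 2.703 and 2.27 CPM in DMSO at 18 h, too few reads for a fold change to be given. The gene model *Gm14226*, which lies within the annotated span of another gene on its own strand, had 2.51, 2.82 and 2.80 CPM against 30.7, 32.7 and 35.6 CPM (-3.56 ± 0.11). *Tcerg1l*, *Vwde* and *Atp6v1g3* had -3.11, -3.10 and -3.61.

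The largest rises were in genes of low level. *Stk32a*, a serine/threonine kinase, had 13.1, 14.8 and 19.4 CPM against 2.38, 1.77 and 2.49 CPM (2.91 ± 0.20, edgeR adjusted p = 2.69e-05), where no control passed 2.93 CPM. *Dusp26*, a dual-specificity phosphatase, had 5.07, 4.79 and 4.74 CPM against 1.298, 1.15 and 0.918 CPM (2.14 ± 0.19), and *Grin2c*, a glutamate receptor subunit, 4.85, 5.04 and 6.99 CPM against 1.35, 0.937 and 0.702 CPM (2.54 ± 0.26). *Cntnap3* had 2.39, *Wdr72* 2.61, *Mgat4c* 2.07, *Hs3st5* 1.92 and *Crhbp*, which binds corticotropin-releasing hormone, 1.90. The gene models *Gm4737* and *Gm10320* ranked above them, at 5.32 and 4.25, but control libraries reached 48.4 and 6.32 CPM at other ages, and reads of such models may be shared with copies elsewhere.

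*Nr1h5*, a nuclear receptor gene, was the 1 gene without a count in treated buds that had a mean of at least 1 CPM in DMSO at 18 h. Its 380 counts all came from DMSO 18 h replicate 2, where it had 10.2 CPM, so it was not tested.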

How the data were processed

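Per the labels, polyA RNA of whole forelimb buds was sequenced on an Illumina NovaSeq as paired-end reads, 1 pair of buds a replicate. Per the labels and the study's methods, the authors trimmed reads with Cutadapt 1.16, mapped them to mm10 with STAR 2.7.0e and a custom annotation, and deposited raw counts per gene, made while mapping, and FPKM values from Cufflinks 2.2.1 with correction for multiply mapped reads and bias and the library type set to unstranded. The strand setting of the counts is not given in the sources used here, so a gene's reads cannot be told from those of an overlapping antisense gene. Genes of chromosomes X and Y and of the mitochondrion are not in the count table.

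Genes were matched by Ensembl identifier to GENCODE M21 (50628 of 50833; the unmatched 205 held 0.00676% of counts), and protein-coding genes were kept. In R 4.3.3, edgeR 4.0.16 filtered them (filterByExpr, minimum count 10, minimum total 15), applied TMM factors and ran the quasi-likelihood test on the 6 libraries of a comparison, with Benjamini-Hochberg adjustment over all genes tested. CPM came from 1 set of TMM factors over all 30 libraries, and scores from log2 CPM with a prior count of 2. Alternatives used DESeq2 1.42.0, limma 3.58.1 on log2(FPKM + 1) and log2(FPKM + 0.1), other scaling and filters, a replicate block, and each replicate left out. Samples were grouped by their titles. Per the methods, replicates were separate embryos from several litters, none tied to a single library, and p-values cover the spread between these samples.

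The comparison, its members and the 47 gene lists were chosen with earlier results of these data known, and the study's own panels were picked on the same libraries. Any list member could be named, called members with the largest folds first (up to 6) and others by mean CPM (up to 4), besides the 10 largest called rises and falls with a mean of at least 1 CPM and groups that do not overlap, and genes without a count in 1 group. Depth sets the precision of low genes such as *Shh* and *Myh15*, and intervals cover the spread of 3 libraries. Some members of the lists are not reported here by name.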

Additional observations from a re-analysis of the deposited data

How the results depend on the processing

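The 348 calls against DMSO 18 h came to 70 with limma on log2(FPKM + 1), 4276 with no minimum fold and 50 with glmTreat against a log2 fold change of 1. Higher calls came to 23, 2067 and 12 and to 111 with log2(FPKM + 0.1), and lower calls to 47, 2209 and 38, in the same order. Against DMSO 12 h the 660 calls came to 158, 6330 and 80, and between DMSO 18 h and 12 h the 173 came to 26, 972 and 0 (glmTreat; 135 genes at an unadjusted p under 0.05, and DESeq2 called 176). With limma the calls against DMSO 1, 6 and 24 h were 493, 317 and 119. On that scale, which understates the change of low genes, the medians of the study's WNT panel, the cholesterol genes and the genes lowered at 6 h were -0.92, -0.74 and -0.36, and the gap in the C59-lowered score was -0.56. The development gap was -0.31 with the top 50 genes, and the cause was not tested. Without single replicates, calls against DMSO 18 h ran from 315 to 364, higher from 139 to 177, lower from 169 to 190, and calls between DMSO 18 h and 12 h from 51 to 277. The median of genes rising with age ran from 0.037 to 0.14 and of those falling from -0.065 to 0.10. *Gli1* ran from -0.14 to 0.19, with -0.065 when DMSO 18 h replicate 2 was left out. Of 112 named genes tested, 70 were called; limma on log2(FPKM + 1) lost 31 of these calls, glmTreat 40 and DESeq2 none of the 111 with a value.

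Whether replicate numbers pair the samples was left unsettled. Deviations from the group means of C59 12 h and DMSO 18 h correlated at 0.12, 0.13 and 0.016 for replicates 1, 2 and 3. With a replicate block 356 genes were called, 170 higher and 186 lower, and among named genes *Sulf1* lost its call (0.999) and *Acan* gained one (-1.88). In each group 2 of 3 libraries correlated best with their own number. Upper-quartile scaling made 55.0% of the calls higher, against 49.1%. Counts of genes outside all 15 DMSO libraries were recomputed in FPKM and without single libraries, alternatives chosen after seeing the data. Low genes are limited by depth: *Shh* had 11 reads and *Myh15* 1 in treated buds.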

Other observations

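*Nr1h5*, a nuclear receptor gene, had counts in 10 of the 30 libraries and none in the other 20. Its level was 21.2 to 32.3 CPM in the 3 libraries of C59 at 1 h, 15.9 to 19.4 CPM in the 3 of DMSO at 6 h and 6.81 to 18.1 CPM in the 3 of C59 at 18 h. In DMSO at 18 h replicate 2 had 10.2 CPM and the other libraries none.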
